A study of Mus musculus with 8 samples.

Results

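The response of resting macrophages to nicotine was compared between α7nAChR-/- mice, called KO, and wild type mice, called WT. For each gene the nicotine change was the log2(FPKM + 1) with nicotine minus that with vehicle, where FPKM is the fragment count scaled by transcript length and library size. The KO change minus the WT change was then taken, so that a positive value means a change that was higher in KO cells. Genes entered with a mean of at least 5 FPKM over the 4 libraries without LPS (lipopolysaccharide, a bacterial cell wall component), which left 7335 of 24339 genes. The threshold set aside 17004 genes, and 8489 of them had no signal in any of the 4 libraries. Rnd3, just outside it at a mean of 4.997 FPKM, had a difference of -1.96, and Mynn, just inside at 5.01 FPKM, had 0.11.

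The cells were macrophages washed from the peritoneal cavity of C57BL/6 mice and cultured. The 4 groups were KO cells with nicotine, KO cells with vehicle, WT cells with nicotine and WT cells with vehicle, each followed by vehicle for 4 h at rest, without LPS. Nicotine was at 10 µM as a pretreatment of 15 min before the 4 h step, and whether it was then removed is not stated here. A further 4 libraries had the same pretreatments and then LPS at 100 ng/ml for 4 h, and they are used here only to set the same quantity beside the resting one. Each group was 1 library, so there is no spread between replicates, no test and no p-value, and a difference was counted when it reached 1 on the log2 scale, which is 2-fold. KO and WT cells came from different animals by design, so an effect of genotype and one of animal or cell preparation cannot be told apart. How many animals or preparations stand behind the libraries of a genotype is not in the labels. The labels give the KO as α7nAChR-/- mice and name no cell type or promoter for the deletion.

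Chrna7 encodes the α7 subunit of nicotinic acetylcholine receptors, which forms a ligand-gated cation channel known from neurons and from macrophages. In the cholinergic anti-inflammatory pathway, acetylcholine or nicotine acts on this channel to lower the release of cytokines such as TNF from macrophages given LPS, with JAK2 and STAT3 among the signalling steps named. Setting the nicotine change side by side in cells with and without the receptor asks which part of it needs the receptor.

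Depth was not given in counts, and the steps between low values did not recover whole reads. The FPKM summed over all genes was 523764 in KO cells with nicotine and 442307 in KO cells with vehicle, against 529093 in WT cells with nicotine and 413052 in WT cells with vehicle. Chrna7 (chromosome 7, 63098692 to 63212569, GRCm38) had a listed value of 0 in each of the 4 libraries, WT included, so its values do not check the genotype labels. Of 27 cholinergic and adrenergic genes listed, 11 were at 0 in all 4 libraries. Low values can be failed estimates here, since Gapdh, a glycolytic gene of every cell, was listed at 3.23 and 2.50 FPKM in the KO nicotine and vehicle libraries and 1.34 and 1.52 FPKM in the WT ones. Adgre1, Itgam and Csf1r, used here as markers of macrophages though not exclusive to them, were between 289 and 689 FPKM in each of the 4 libraries. Other peritoneal cell types were present at lower sums. The 13 B cell markers summed to 237 and 320 FPKM in KO cells with nicotine and vehicle, and to 326 and 343 FPKM in WT cells with nicotine and vehicle. Mast cell markers (10 genes) summed to 326 and 166 FPKM in KO cells with nicotine and vehicle, and 426 and 221 FPKM in WT cells with nicotine and vehicle. Neutrophil markers (12 genes) summed to 69.9 and 122 FPKM in the same KO libraries and 38.4 and 53.3 FPKM in the WT ones, with 2 of them at 0 throughout, and mesothelial and fibroblast markers came to at most 3.01 FPKM.

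Nicotine changes were close in both genotypes across genes. The KO and WT changes had a Pearson correlation of 0.930 and a Spearman correlation of 0.931 over the 7335 genes, which are not independent replicates but share 2 libraries on each side. Their SD across genes was 1.00 in KO and 1.04 in WT, a ratio of 0.964, while the SD of the difference between them was 0.38. In KO cells 1353 genes (18.4%) were at least 2-fold higher and 796 (10.9%) at least 2-fold lower with nicotine, against 1455 (19.8%) and 794 (10.8%) in WT cells. Of these, 1141 genes were higher in both genotypes, with a median change of 1.51 in KO and 1.59 in WT, and 590 were lower in both, with a median of -1.49 in each. For 6287 genes (85.7%) the KO and WT changes lay within 0.5 of each other.

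The 5 largest shared rises in level were those of Trib3, Asns, Gdf15, Ramp3 and Ifrd1. Trib3, a pseudokinase gene of the ATF4 stress response, had 84.6 FPKM with nicotine and 0.54 FPKM with vehicle in KO cells, and 78.1 and 1.00 FPKM in WT cells (changes of 5.80 in KO and 5.30 in WT). Asns, the asparagine synthetase gene, had 115 and 3.74 FPKM in KO cells with nicotine and vehicle, and 81.1 and 2.47 FPKM in WT cells with nicotine and vehicle (4.61 in KO and 4.56 in WT). Both genes were thus high in both nicotine libraries and low in both vehicle libraries, whatever the genotype. Gdf15, which encodes a cytokine released under cell stress, had the highest WT change of all genes named, with 163 and 1.75 FPKM in KO cells with nicotine and vehicle, and 570 and 3.005 FPKM in WT cells with nicotine and vehicle. Its KO change of 5.90 stood against a WT change of 7.16 (difference of -1.26), and its KO minus WT difference was -1.80 with nicotine and -0.54 with vehicle. Ramp3, a receptor activity-modifying protein gene, and Ifrd1, an interferon-related developmental regulator gene, had changes of 4.61 and 4.56 in KO cells and 4.67 and 4.61 in WT cells. Among the largest shared falls in level, Neat1, a nuclear long noncoding RNA, had 17.0 and 282 FPKM in KO cells with nicotine and vehicle, and 14.0 and 388 FPKM in WT cells with nicotine and vehicle. Tifab, Mtus1, Tor4a and Abcd2 followed, with changes of -3.94 to -3.27 in KO and -4.14 to -3.18 in WT.

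**Figure D1:**
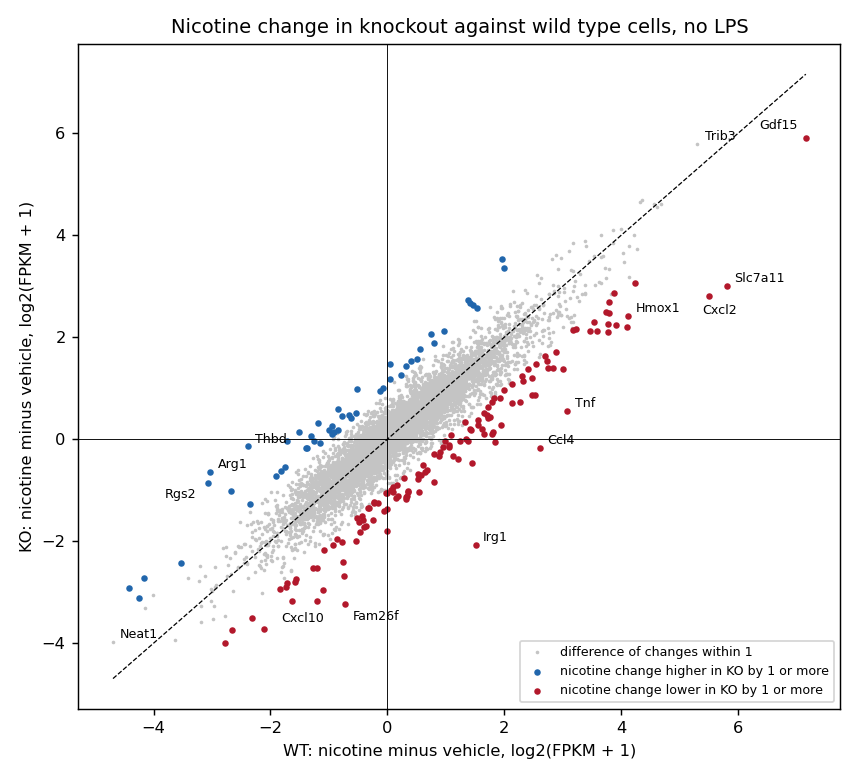
Nicotine change in WT cells (x axis) against that in KO cells (y axis), both as log2(FPKM + 1) with nicotine minus vehicle, 1 point per gene for 7335 genes. The points lie along the dashed line of equal change (Pearson 0.930), with 131 genes below it by 1 or more in red and 49 above it in blue.

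The KO change was higher than the WT change by at least 1 for 49 genes (0.668% of those measured) and lower by at least 1 for 131 genes (1.79%), 180 in all (2.45%). With the 4 libraries scaled to an equal FPKM sum, which moves the median over all genes from -0.01 to 0.10, the split was 71 higher and 99 lower, so that 58.2% in place of 72.8% of the genes counted were lower. By mean level the share of genes counted was between 2.08% and 3.74% in each of 4 ranges of FPKM. Of the 131 lower genes, 35 were at least 2-fold higher with nicotine in WT cells but not in KO cells, and 34 were at least 2-fold lower with nicotine in KO cells but not in WT cells. A further 30 were higher with nicotine in both genotypes by different amounts, 15 were lower in both, 16 moved under 2-fold in each, and 1 moved by 2-fold or more in opposite directions. Of the 49 higher genes, 14 were at least 2-fold lower with nicotine in WT only, 11 were higher in KO only, 6 were higher in both, 6 were lower in both and 12 moved under 2-fold in each.

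The difference of changes equals the KO minus WT difference between the nicotine libraries less that between the vehicle libraries, so it can come from either pair. In the 131 lower genes the vehicle libraries were 2-fold apart without the nicotine libraries in 53, the nicotine libraries alone in 24, both pairs in 14 and neither in 40. Their median KO minus WT difference was -0.28 with nicotine and 1.00 with vehicle. In the 49 higher genes the counts were 24, 3, 4 and 18 in the same order, with medians of 0.27 with nicotine and -1.07 with vehicle. Over all 7335 genes the counts in that order were 230, 118, 223 and 6764. The vehicle pair held the larger difference in 121 of the 180 genes (67.2%), against 3359 of all 7335 (45.8%). The 180 genes were chosen by the nicotine difference less the vehicle difference, so their counts and medians describe the chosen values and support nothing further. Over all genes the SD of the KO minus WT difference was 0.51 with nicotine and 0.55 with vehicle, and KO was at least 2-fold above WT for 2.54% of genes with nicotine and 3.87% with vehicle and at least 2-fold below for 2.11% with nicotine and 2.3% with vehicle.

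**Figure D2:**
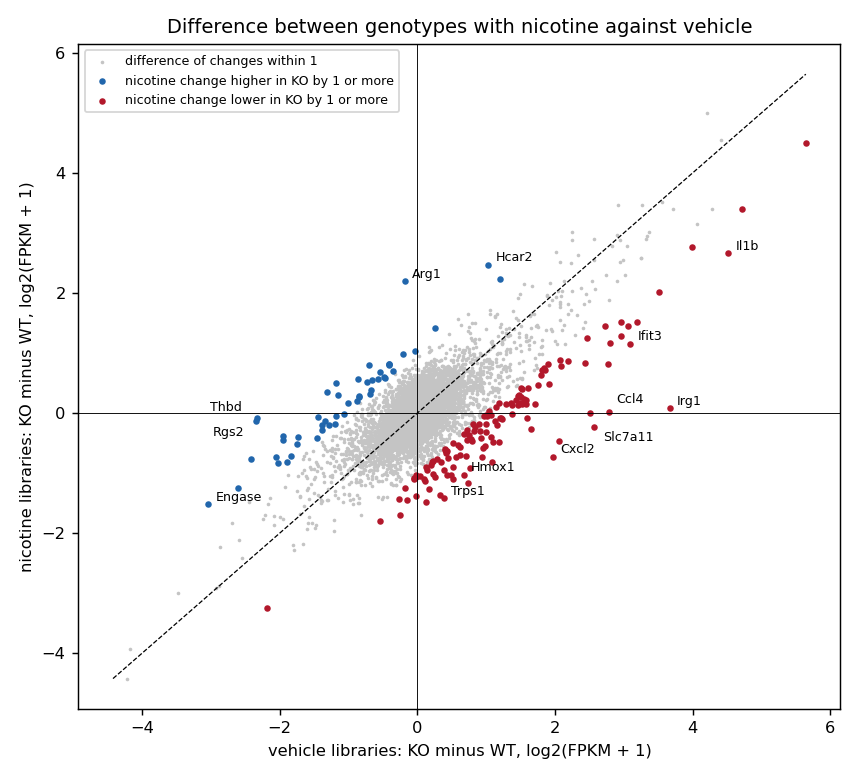
KO minus WT difference in log2(FPKM + 1) between the vehicle libraries (x axis) and between the nicotine libraries (y axis), 1 point per gene for 7335 genes. Genes such as Irg1, Ccl4, Thbd and Rgs2 lie far along the x axis and near 0 on the y axis, while Arg1 and Trps1 lie near 0 on the x axis and away from it on the y axis.

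Irg1 had the lowest KO change relative to WT. Irg1 (now Acod1), the enzyme that makes itaconate in activated macrophages, had 54.4 FPKM with nicotine and 232 FPKM with vehicle in KO cells, and 51.5 and 17.4 FPKM in WT cells. The nicotine libraries were thus within 1.06-fold of each other on the FPKM + 1 scale, while KO vehicle was 12.7-fold above WT vehicle, and nicotine went with a lower level in KO (change of -2.07) and a higher one in WT (1.51). The difference of -3.59 was the largest in size of the 40 genes named as highest or lowest, and Irg1 was the 1 gene with changes of at least 2-fold in opposite directions.

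Shown for some of the 20 genes lowest in KO are the 250 bases before each RefSeq transcription start (build GRCm38.p6). The group joins genes known from mouse as targets of ATF4, NF-kB or interferon. Apart from Irg1, each gene shown was paired with a motif present in its window, so these sequences do not show how common it is. Il1a and Ptgs2, also among the 20, had no match to the ATF4, NF-kB or interferon element. Capitals mark matches on either strand to TGATGNAA, the ATF4-C/EBP element, in Slc7a11, to an NF-kB element (GGG, any 2 bases, TTTCC) in Cxcl2, and to the interferon-stimulated response element (GAAA, any 2 bases, GAAA) in Cxcl10, Fam26f, Ifit3 and Socs1. Irg1 has none of the 9 motifs searched in this window.
Irg1 (chr14:103046762-103047011, plus strand): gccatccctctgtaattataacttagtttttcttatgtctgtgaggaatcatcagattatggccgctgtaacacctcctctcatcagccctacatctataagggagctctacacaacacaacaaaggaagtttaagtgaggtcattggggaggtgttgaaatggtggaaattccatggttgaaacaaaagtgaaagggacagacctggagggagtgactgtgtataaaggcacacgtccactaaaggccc
Slc7a11 (chr3:50443614-50443863, minus strand): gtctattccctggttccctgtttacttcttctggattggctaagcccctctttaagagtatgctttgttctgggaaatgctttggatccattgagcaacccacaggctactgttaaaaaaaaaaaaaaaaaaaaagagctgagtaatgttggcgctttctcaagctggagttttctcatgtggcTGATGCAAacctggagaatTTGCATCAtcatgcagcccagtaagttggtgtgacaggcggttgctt
Cxcl2 (chr5:90903649-90903898, plus strand): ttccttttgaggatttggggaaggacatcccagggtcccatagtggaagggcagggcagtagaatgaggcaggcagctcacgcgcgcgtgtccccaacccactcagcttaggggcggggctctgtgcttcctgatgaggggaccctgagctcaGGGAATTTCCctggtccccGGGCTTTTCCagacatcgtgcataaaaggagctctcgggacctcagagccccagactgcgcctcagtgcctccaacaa
Cxcl10 (chr5:92348890-92349139, minus strand): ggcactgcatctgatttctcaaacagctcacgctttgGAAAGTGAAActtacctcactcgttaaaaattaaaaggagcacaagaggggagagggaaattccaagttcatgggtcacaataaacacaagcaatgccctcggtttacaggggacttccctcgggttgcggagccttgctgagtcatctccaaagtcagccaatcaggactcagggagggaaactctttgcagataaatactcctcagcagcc
Fam26f (chr10:34127973-34128222, minus strand): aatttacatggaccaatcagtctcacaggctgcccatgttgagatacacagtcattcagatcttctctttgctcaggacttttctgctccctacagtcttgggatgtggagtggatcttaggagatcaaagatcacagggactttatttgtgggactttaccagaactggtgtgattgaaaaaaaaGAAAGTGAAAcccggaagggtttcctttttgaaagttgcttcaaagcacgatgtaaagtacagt
Ifit3 (chr19:34583279-34583528, plus strand): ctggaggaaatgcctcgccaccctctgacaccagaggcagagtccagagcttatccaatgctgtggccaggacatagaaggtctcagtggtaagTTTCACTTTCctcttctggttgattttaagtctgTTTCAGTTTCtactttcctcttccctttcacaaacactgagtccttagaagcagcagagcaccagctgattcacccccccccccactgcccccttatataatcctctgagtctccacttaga
Socs1 (chr16:10785537-10785786, minus strand): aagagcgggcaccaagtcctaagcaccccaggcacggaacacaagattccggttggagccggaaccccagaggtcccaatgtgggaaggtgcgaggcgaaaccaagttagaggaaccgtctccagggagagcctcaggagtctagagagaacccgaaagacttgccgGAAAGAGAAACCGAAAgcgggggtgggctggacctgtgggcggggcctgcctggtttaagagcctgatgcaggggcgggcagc
The matches begin 66 and 47 bases before the start in Slc7a11, 97 and 78 in Cxcl2, 213 in Cxcl10, 64 in Fam26f, 156 and 122 in Ifit3, and 83 and 77, overlapping, in Socs1. Ccl4, Tnf, Arg1, Thbd and Hmox1 had no entry among the promoters used here.

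Over windows from 250 bases before to 50 after the start, the interferon element was in 11.1% of the 108 lower genes with a RefSeq promoter, 9.09% of the 33 higher ones and 4.18% of all 5956 measured genes with one. The NF-kB element was in 4.63%, 0% and 2.07% in the same order, the ATF4 element in 5.56%, 0% and 2.89%, and the AP-1 element TGANTCA in 12.96%, 3.03% and 6.41%. CACGTG, an E-box, was in 8.33% of the lower and 27.3% of the higher genes, against 13.4% of all. The cores searched for NRF2 (TGACNNNGC, in 20.4%, 18.2% and 17.5%), CREB (TGACGTCA, in 2.78%, 0% and 3.74%) and SREBP (TCACNCCAC, in 2.78%, 3.03% and 1.46%) are given in the same order. The heat shock element (GAA, TTC and GAA with any 2 bases between each) was in 0% of both groups and 0.588% of all. Matches to different motifs may overlap, all were searched on both strands, and a match describes letters, not binding.

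Among cytokine and chemokine genes, the lowest differences were those of Ccl4, Cxcl2 and Tnf. Ccl4, a chemokine that attracts monocytes and lymphocytes, had 24.4 and 27.4 FPKM in KO cells with nicotine and vehicle, and 24.0 and 3.11 FPKM in WT cells with nicotine and vehicle, so that WT vehicle alone was low (difference of -2.77). Cxcl2, a neutrophil attractant, had 310 and 43.2 FPKM in KO cells and 511 and 10.3 FPKM in WT cells, nicotine before vehicle in each. It was higher with nicotine in both genotypes, by 2.81 in KO and 5.51 in WT (difference of -2.69). Tnf, the cytokine the cholinergic pathway is best known for, had 65.4 and 44.3 FPKM in KO cells with nicotine and vehicle, and 90.8 and 9.88 FPKM in WT cells with nicotine and vehicle. At rest nicotine thus went with more Tnf RNA in both genotypes, by 0.55 in KO and 3.08 in WT (difference of -2.53), and WT vehicle was again the lowest library. Il1b, encoding interleukin 1β, had 10.7 and 89.9 FPKM in KO cells with nicotine and vehicle, and 0.85 and 2.97 FPKM in WT cells with nicotine and vehicle. Its level was lower with nicotine in both genotypes (-2.96 in KO, -1.10 in WT), and both KO libraries were above both WT ones. Il1a, encoding interleukin 1α, went the other way, with 192 and 39.9 FPKM in KO cells and 66.1 and 3.49 FPKM in WT cells with nicotine and vehicle (changes of 2.24 in KO and 3.90 in WT). Its difference of -1.66 was -0.93 with a pseudocount of 5. Il6 stayed under the mean of 5 FPKM and was not counted; its values were 6.33 and 5.31 FPKM in KO cells and 4.16 and 0.26 FPKM in WT cells with nicotine and vehicle. Il10, an anti-inflammatory cytokine gene, was at 2.53 FPKM or less and Nos2, the inducible nitric oxide synthase gene, at 2.11 FPKM or less in all 4 libraries.

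Of the 9 cytokine genes measured, 3 were lower by at least 1 (Tnf, Il1b and Il1a) and 0 higher, and the list's median was -0.01, as over all genes, and took either sign with the setting. Over all genes 1.79% were lower by at least 1 and 0.668% higher, shares that stand beside each list count here and below. Osm, encoding oncostatin M, shows a response without such a gap, at 69.4 and 3.90 FPKM in KO cells and 123 and 7.58 FPKM in WT cells with nicotine and vehicle (changes of 3.85 and 3.86). Of 17 chemokines, 4 were lower (Ccl4, Cxcl2, Cxcl10 and the neutrophil attractant Cxcl1) and 0 higher, with a median of -0.32 that was -0.04 with a pseudocount of 0.1, -0.03 with one of 5 and -0.20 with an equal FPKM sum. Ccl5, Cxcl3, Cxcl13 and Pf4 were far higher in KO than in WT cells both with nicotine (by 1.87 to 3.40) and with vehicle (by 2.23 to 4.06), so their differences of changes stayed between -0.91 and 0.27. These 4 thus differed by genotype in both pairs of libraries.

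Interferon-inducible genes fell into separate patterns. Cxcl10, a chemokine induced by interferons, had 2.95 and 34.4 FPKM in KO cells with nicotine and vehicle, and 1.25 and 4.17 FPKM in WT cells with nicotine and vehicle (difference of -1.96). Fam26f (now Calhm6), an interferon-induced membrane protein gene, had 3.08 and 37.3 FPKM in KO cells and 3.09 and 5.76 FPKM in WT cells, nicotine before vehicle in each (-2.50). In both, KO vehicle stood out above the other 3 libraries. Ifit3, an antiviral gene, had 1.82 and 17.1 FPKM in KO cells and 0.26 and 1.12 FPKM in WT cells with nicotine and vehicle (-1.94). All 12 measured interferon-inducible GTPase genes, of the guanylate-binding and immunity-related families that act on intracellular microbes, had a negative difference, with a median of -0.95, and 5 of them (Gbp5, Ifi47, Iigp1, Irgm2 and Tgtp2) were lower by at least 1. The share lower by at least 1 over all genes was 1.79%. KO vehicle was at least 2-fold above WT vehicle for 12 of 12 (against 3.87% of all genes), with a median difference of 1.76. With nicotine KO was 2-fold above for 4 of 12 (against 2.54% of all genes), with a median of 0.82. Gbp5, the lowest of them, had 2.93 and 50.5 FPKM in KO cells with nicotine and vehicle, and 1.20 and 8.48 FPKM in WT cells with nicotine and vehicle. These GTPases are near-identical in part, so reads may be split among them.

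The 22 measured antiviral genes, by contrast, had a median difference of -0.06, which was of the other sign under 2 of the other settings, with 2 lower, Ifit3 among them, and 1 higher (Oas1a, at 1.03, but 0.74 with quantile scaling and 0.82 with a pseudocount of 5). They were higher in KO than in WT cells by a median of 1.36 with nicotine and 1.34 with vehicle. Isg15, a ubiquitin-like antiviral gene, had 210 and 54.8 FPKM in KO cells and 35.8 and 6.25 FPKM in WT cells, and its changes of 1.92 and 2.34 differed by -0.43. Irf7, a transcription factor of interferon production, had 37.5 and 61.7 FPKM in KO cells and 2.49 and 7.28 FPKM in WT cells with nicotine and vehicle. For genes such as Isg15 and Irf7 the genotypes thus differed about as much with nicotine as with vehicle.

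NF-kB subunits and the genes that feed back on them had a median difference of -0.57 over 26 genes, with 22 negative, 5 lower by at least 1 (Cd40, Bcl3, Nfkbia, Tnfaip2 and Marcksl1) and 0 higher. KO vehicle was above WT vehicle for 23 of them, against 3586 of all 7335 genes. Nfkbia, the inhibitor IκBα and itself an NF-kB target, had 87.7 and 111 FPKM in KO cells with nicotine and vehicle, and 116 and 52.5 FPKM in WT cells with nicotine and vehicle (difference of -1.46). Cd40, a costimulatory receptor gene, had 21.04 and 22.0 FPKM in KO cells and 48.3 and 12.8 FPKM in WT cells with nicotine and vehicle (-1.90), so WT nicotine was its highest library and WT vehicle its lowest. Nfkb1 and Rel, which encode subunits, had differences of 0.00 and -0.05. JAK-STAT and SOCS genes had a median of -0.15 over 18 genes (-0.05 with an equal FPKM sum), with 6 lower by at least 1 and 0 higher. For this list and the NF-kB list, the shares over all genes were 1.79% lower and 0.668% higher. Socs1, an inhibitor of JAK kinases, had 5.93 and 8.59 FPKM in KO cells and 7.36 and 2.07 FPKM in WT cells with nicotine and vehicle (-1.92, and -1.12 with a pseudocount of 5). Pim1, a kinase gene induced by STATs, had 58.3 and 21.8 FPKM in KO cells and 127 and 14.9 FPKM in WT cells with nicotine and vehicle (-1.63). Jak2, named in the pathway, had 18.2 and 40.6 FPKM in KO cells with nicotine and vehicle, and 19.3 and 16.9 FPKM in WT cells with nicotine and vehicle (-1.30), with KO vehicle alone apart. Stat3 had 59.9 and 38.2 FPKM in KO cells and 63.9 and 29.6 FPKM in WT cells with nicotine and vehicle (-0.45, not counted). Il10ra, the ligand-binding chain of the interleukin 10 receptor, was one whose gap lay with nicotine, at 22.7 and 50.2 FPKM in KO cells and 75.6 and 59.9 FPKM in WT cells with nicotine and vehicle (-1.44). Socs3 and the phosphatase gene Ptpn1 were the remaining members counted, at -1.17 and -1.22.

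Antioxidant genes tied to NRF2, the regulator of oxidative stress defence, had a median nicotine change of 0.48 in KO and 0.98 in WT cells. The difference was negative for 21 of 21, with a median of -0.54 that ran from -0.67 to -0.40 over the other settings. For 5 it passed 1 in size (Hmox1, Osgin1, Gclm, Sqstm1 and Nfe2l2), where 1.79% of all genes were lower by at least 1. Hmox1, haem oxygenase 1, had 2676 and 501 FPKM in KO cells with nicotine and vehicle, and 5471 and 313 FPKM in WT cells with nicotine and vehicle. Its nicotine change was 2.41 in KO and 4.12 in WT (difference of -1.71), and WT cells were the higher with nicotine and the lower with vehicle. Gclm, a subunit of the enzyme that limits glutathione synthesis, had 292 and 93.3 FPKM in KO cells and 344 and 52.0 FPKM in WT cells with nicotine and vehicle (-1.07). Nfe2l2, which encodes NRF2, had 181 and 184 FPKM in KO cells with nicotine and vehicle, and 276 and 139 FPKM in WT cells with nicotine and vehicle (-1.01). Gclm and Nfe2l2 pass 1 in size only narrowly. With an equal FPKM sum the median over all genes moved from -0.01 to 0.10, so whether these genes are counted can depend on the scaling. Across the list KO cells were above WT cells for 10 of 21 genes with nicotine and 20 of 21 with vehicle. Over all 7335 genes they were above for 3607 with nicotine and 3586 with vehicle. Slc7a11, the cystine transporter that NRF2 and ATF4 both induce, had 489 and 59.7 FPKM in KO cells with nicotine and vehicle, and 573 and 9.23 FPKM in WT cells with nicotine and vehicle. Its levels with nicotine were within 1.17-fold, and with vehicle KO was 5.93-fold above WT, which gave a difference of -2.80.

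Amino acid stress genes of the ATF4 program had close median changes in both genotypes. Over 26 genes the median was 3.08 in KO and 3.50 in WT, and the median difference was -0.04, which was of the other sign under 1 setting. Of these genes 3 were lower by at least 1 (Slc7a11, Gdf15 and Mthfd2, a mitochondrial folate enzyme gene) and 1 higher (Psat1, of serine synthesis). Atf4 itself had 882 and 88.6 FPKM in KO cells with nicotine and vehicle, and 938 and 103 FPKM in WT cells with nicotine and vehicle. Cytosolic tRNA synthetase genes had 0 of 20 counted, with a median of -0.05 that was of the other sign under 1 setting. Heat shock genes were negative in 13 of 14, with a median of -0.48, which was -0.29 with quantile scaling, and 2 counted. Hspa1b had 16.0 and 2.69 FPKM in KO cells with nicotine and vehicle, and 28.9 and 0.74 FPKM in WT cells with nicotine and vehicle (-1.90), and Hspa1a 11.1 and 1.81 FPKM in KO and 21.7 and 0.65 FPKM in WT cells (-1.68). Both encode inducible HSP70 and are near-identical, so they are not independent values, and with a pseudocount of 5 Hspa1b was at -1.12 and Hspa1a at -1.003. Endoplasmic reticulum chaperones leaned the other way, positive in 15 of 18 with a median of 0.26 (0.25 to 0.41 over the other settings) and 0 counted.

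Immediate early genes had a median difference of -0.40 over 22 genes, with 3 lower by at least 1 (Fosl1, Dusp1 and Nr4a3) and 0 higher. The Fosl1 value, -1.51, was -0.85 with a pseudocount of 5 and -2.97 with one of 0.1. Dusp1, a phosphatase that ends MAP kinase signalling, had 52.1 and 11.2 FPKM in KO cells with nicotine and vehicle, and 107 and 8.05 FPKM in WT cells with nicotine and vehicle (-1.46). In this list KO was above WT for 3 of 22 genes with nicotine and 8 of 22 with vehicle, against 3607 and 3586 of all 7335 genes. Ptgs2, the inducible cyclooxygenase, had 20.2 and 10.7 FPKM in KO cells and 7.66 and 0.51 FPKM in WT cells with nicotine and vehicle (-1.66, but -0.52 with a pseudocount of 5 and -2.76 with one of 0.1). Of the 17 effector enzyme genes, which include Irg1 and Ptgs2, 4 were lower by at least 1 (with the prostaglandin E synthase gene Ptges at -1.49 and Gch1, of tetrahydrobiopterin synthesis, at -1.54) and 2 higher (Arg1 and Plau). Among the remaining genes lowest in KO, Trps1, a GATA-type repressor gene, had 3.55 and 14.9 FPKM in KO cells and 11.2 and 11.2 FPKM in WT cells, so that only KO nicotine stood apart (-1.80). Ednrb, the endothelin B receptor gene and a marker of resident peritoneal macrophages, had 30.6 and 28.4 FPKM in KO cells and 80.0 and 22.4 FPKM in WT cells (-1.68), so that only WT nicotine did. Bcl3, an IκB-family coactivator gene, and Sdc4, a cell surface proteoglycan gene, each had -1.67.

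Among the 20 genes lowest in KO, at -3.59 to -1.66, KO vehicle was above WT vehicle for 20 and at least 2-fold above for 14, while the nicotine libraries were within 2-fold for 12. WT vehicle was the lowest of the 4 libraries for 15 and KO vehicle the highest for 8. Among the 20 highest in KO, at 1.22 to 2.38, KO vehicle was at least 2-fold below WT vehicle for 14, and the nicotine libraries were within 2-fold for 16. WT vehicle was the highest of the 4 for 13 of these and KO vehicle the lowest for 9. Both sets were picked by the nicotine difference less the vehicle difference, so these counts describe the chosen values and support nothing further.

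**Figure D3:**
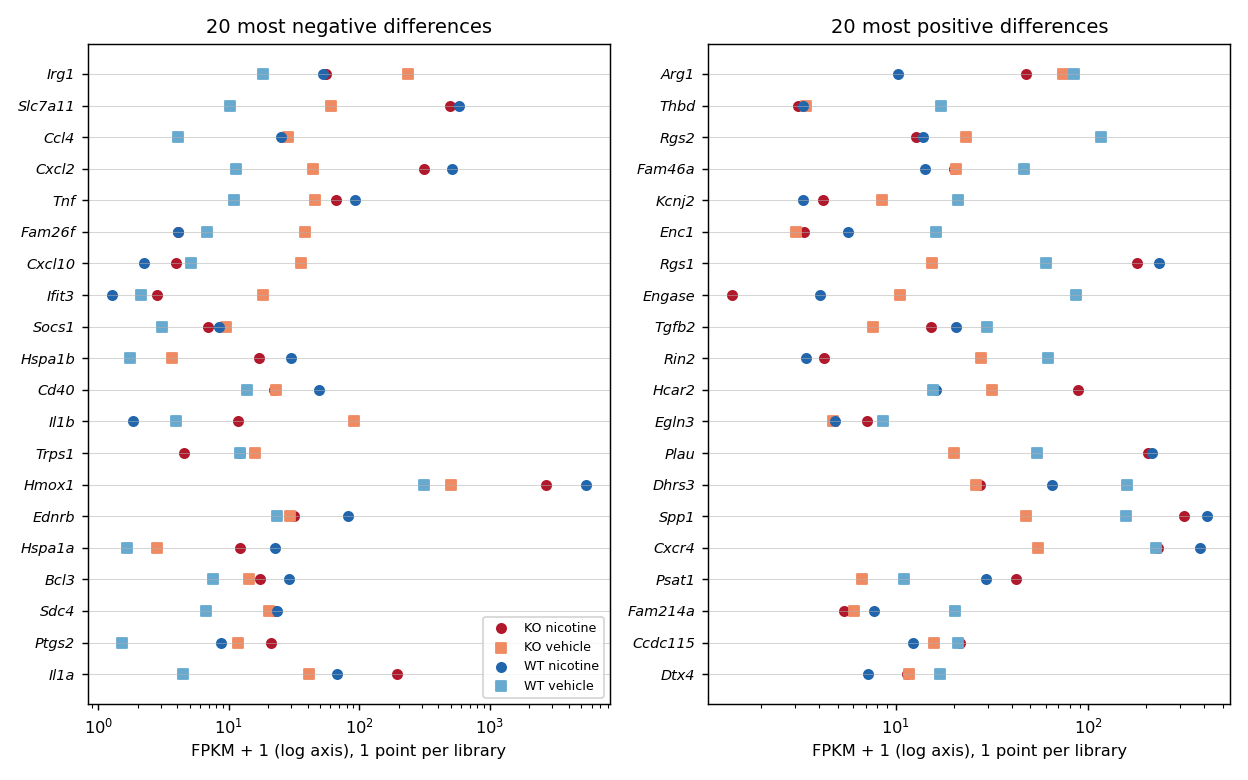
FPKM + 1 on a log axis in each of the 4 libraries for the 20 genes with the most negative (left) and the 20 with the most positive (right) KO change minus WT change, 1 point per library. In most rows the nicotine points (circles) lie close together and the vehicle points (squares) lie apart, KO vehicle above WT vehicle on the left and below it in 19 of 20 on the right. The genes were picked on these same values.

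Arg1, the arginase of alternatively activated macrophages, had the highest difference, 2.38, and was an exception to that pattern. It had 46.2 FPKM with nicotine and 72.8 FPKM with vehicle in KO cells, and 9.29 and 82.8 FPKM in WT cells, so WT nicotine alone was low and the vehicle libraries were within 1.14-fold. Hcar2, the receptor for hydroxybutyrate and niacin, had 87.9 and 30.8 FPKM in KO cells with nicotine and vehicle, and 15.1 and 14.5 FPKM in WT cells with nicotine and vehicle (1.43), where KO nicotine was the highest. Thbd, the anticoagulant receptor thrombomodulin, had 2.11 and 2.42 FPKM in KO cells with nicotine and vehicle, and 2.29 and 16.2 FPKM in WT cells with nicotine and vehicle (2.25, and 1.48 with a pseudocount of 5). Rgs2, a regulator of G protein signalling, had 11.7 and 22.0 FPKM in KO cells with nicotine and vehicle, and 12.9 and 115 FPKM in WT cells with nicotine and vehicle (2.20). For both, WT vehicle stood above the other 3 libraries. Rgs1, a relative of Rgs2, was higher with nicotine in both genotypes, at 177 and 14.5 FPKM in KO cells and 232 and 59.0 FPKM in WT cells (1.57).

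Plau, Spp1, Cxcr4 and Psat1 were higher with nicotine in both genotypes and started from a lower vehicle level in KO. Engase, Dhrs3 and Tgfb2 also had a lower vehicle level in KO but were not higher with nicotine in both genotypes. Plau, the urokinase plasminogen activator, had 203 and 19.0 FPKM in KO cells with nicotine and vehicle, and 213 and 53.0 FPKM in WT cells with nicotine and vehicle (1.37). Spp1, the matrix and cytokine-like protein osteopontin, had 313 and 46.5 FPKM in KO cells and 411 and 157 FPKM in WT cells with nicotine and vehicle (1.34). Cxcr4, the receptor for CXCL12, had 228 and 53.5 FPKM in KO cells and 379 and 225 FPKM in WT cells with nicotine and vehicle (1.32). For all 3 the KO and WT nicotine libraries were within 1.66-fold. Psat1 had 41.3 and 5.67 FPKM in KO cells and 28.5 and 10.1 FPKM in WT cells with nicotine and vehicle (1.25, but 0.97 with a pseudocount of 5). Engase, a cytosolic deglycosylating enzyme gene, had 0.41 and 9.56 FPKM in KO cells and 3.03 and 85.6 FPKM in WT cells with nicotine and vehicle, and both of its KO libraries were below their WT counterparts (1.52, but 0.52 with a pseudocount of 0.1). Dhrs3, a retinaldehyde reductase gene, had 26.3 and 25.2 FPKM in KO cells and 63.4 and 158 FPKM in WT cells with nicotine and vehicle (1.36). Tgfb2, a growth factor gene that marks resident peritoneal macrophages, had 14.2 and 6.64 FPKM in KO cells and 19.6 and 28.6 FPKM in WT cells with nicotine and vehicle (1.52). The remaining genes of the 20 were Fam46a (now Tent5a), Kcnj2, Enc1, Rin2, Egln3, Fam214a, Ccdc115 and Dtx4, at 1.22 to 1.68. With a pseudocount of 5, Egln3 (0.87), Fam214a (0.95), Ccdc115 (0.99) and Dtx4 (0.89) were under 1.

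Among groups of basic cell work few genes were counted. Oxidative phosphorylation (30 genes), cholesterol synthesis (19), lipid handling (20), lysosomal (25), antigen presentation (18), Notch pathway (14) and acute phase genes (15) had 0 counted either way, where 2.45% of all genes were counted, a share that comes to under 1 gene in a list of this size. Their medians ran from -0.17 for antigen presentation to 0.30 for cholesterol synthesis, positive in 15 of 19 genes. The antigen presentation median was -0.05 with an equal FPKM sum and -0.07 with quantile scaling, and those of oxidative phosphorylation, lipid and lysosomal genes took either sign with the setting. Of 30 ribosomal protein genes 1 was counted, Rpl30, at 37.6 and 38.7 FPKM in KO cells and 62.5 and 23.4 FPKM in WT cells with nicotine and vehicle, a gene whose reads many near-identical copies can share. Glycolysis and hypoxia genes had 1 of 22 (Egln3, higher) and pattern recognition receptors 1 of 25 (Clec4e, a C-type lectin receptor gene, lower). Clec4e had 768 and 1009 FPKM in KO cells with nicotine and vehicle, and 280 and 121 FPKM in WT cells with nicotine and vehicle (-1.60). Of 4 measured cell cycle genes 1 was lower, the inhibitor Cdkn1a (-1.06), which was no longer past 1 in size with an equal FPKM sum (-0.96) or quantile scaling (-0.99). Of the 5 measured neighbours of Chrna7 on chromosome 7, 0 were counted. Hes1, a Notch target, fell just under the FPKM threshold at 4.50 and 0.32 FPKM in KO cells and 12.7 and 1.99 FPKM in WT cells with nicotine and vehicle.

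**Figure D4:**
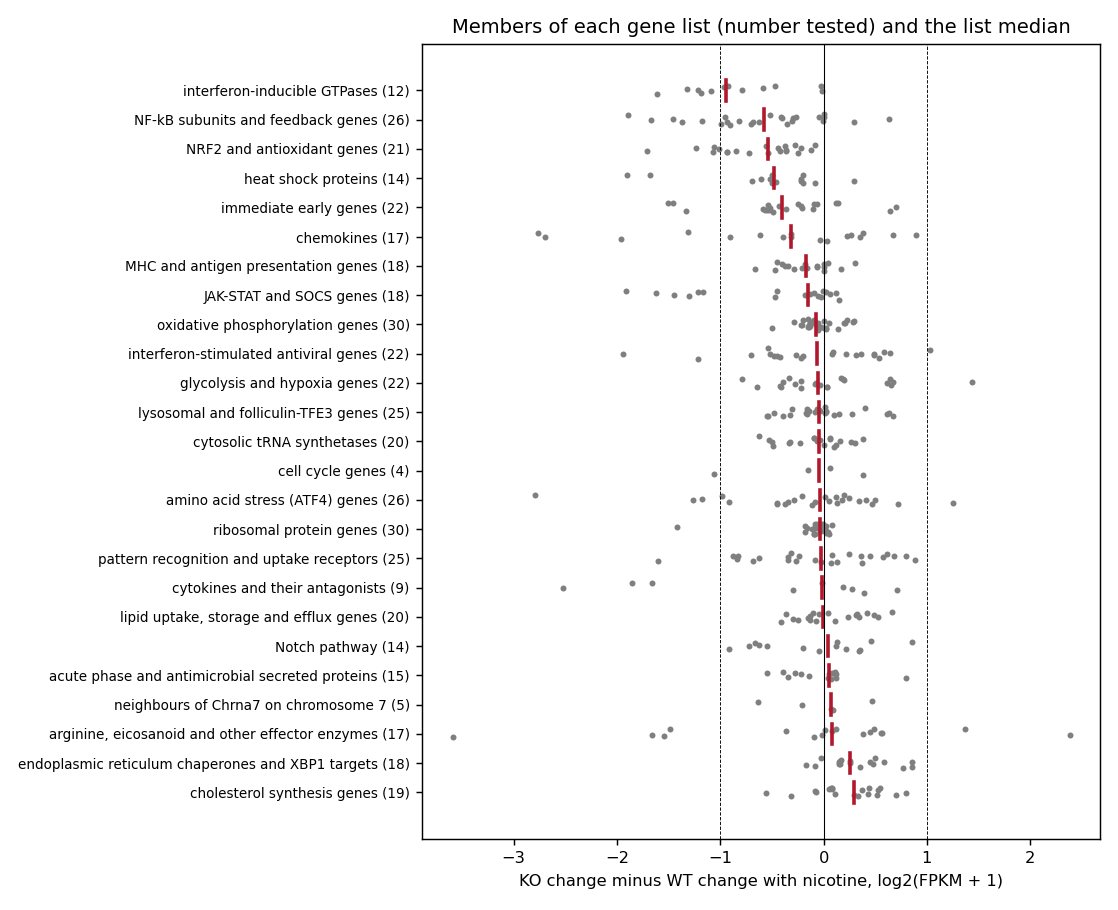
KO change minus WT change on the log2(FPKM + 1) scale (x axis) for each measured member of 25 gene lists (rows, with the number of genes), with 1 grey point per gene and a red bar at the list median. The interferon-inducible GTPases, NF-kB genes and NRF2 genes have the lowest medians (-0.95, -0.57 and -0.54), and dashed lines mark -1 and 1.

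Markers of peritoneal macrophage subsets also differed between genotypes. Of 19 measured genes that mark resident macrophages, 2 were higher by at least 1 (Tgfb2 and Gata6), 1 was lower (Ednrb) and the median of -0.01 took either sign with the setting. Over all 7335 genes KO was above WT for 3607 with nicotine and 3586 with vehicle. Among the 19 resident markers KO was above WT for 3 with nicotine (1 of them 2-fold) and for 5 with vehicle (2 of them 2-fold). It was at least 2-fold below for 5 with nicotine and 6 with vehicle, against 2.11% and 2.3% of all genes. The lowest in KO relative to WT was Vsig4, a complement receptor gene, at 3.57 and 7.93 FPKM in KO cells and 96.9 and 165 FPKM in WT cells with nicotine and vehicle. Timd4, an uptake receptor gene, was higher in KO, at 78.3 and 85.7 FPKM in KO cells and 34.5 and 20.3 FPKM in WT cells with nicotine and vehicle. Gata6, the transcription factor of resident peritoneal macrophages, had 0.87 and 3.49 FPKM in KO cells with nicotine and vehicle, and 2.30 and 15.7 FPKM in WT cells with nicotine and vehicle. At such low values, whether Gata6 is counted depends on the pseudocount. Of 10 measured monocyte-derived markers, KO was above WT for 4 with nicotine and 5 with vehicle, with median KO minus WT differences of -0.13 and -0.08. Ccr2, a monocyte chemokine receptor gene, had 0.89 and 11.9 FPKM in KO cells and 1.00 and 17.8 FPKM in WT cells with nicotine and vehicle. Ly6c2, a monocyte antigen gene with a close paralog, had 33.9 and 76.6 FPKM in KO cells and 2.29 and 1.97 FPKM in WT cells with nicotine and vehicle (-1.30, and -1.98 with quantile scaling). Of 11 measured B cell markers 0 were counted, with a median of -0.33. The sums over each marker list were closer, at 2550 and 2488 FPKM in KO cells and 2713 and 2897 FPKM in WT cells for 21 resident markers, and 1545 and 1424 FPKM in KO cells and 1536 and 1322 FPKM in WT cells for 12 monocyte-derived ones. The resident list includes the abundant Adgre1, Itgam and Csf1r, used above for macrophages in general, so its sum does not measure a resident share. The part of cell makeup in the differences of changes was not tested, and in bulk RNA fewer cells of a type and less RNA per cell cannot be told apart.

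The same quantity was taken in the 4 libraries given LPS, which share no library with the resting ones. There 416 of the 7335 genes (5.67%) differed between genotypes by at least 1 in the nicotine change, 182 higher (2.48%) and 234 lower (3.19%) in KO. The 7335 genes passed the FPKM threshold in the resting libraries, whatever their level with LPS. In the LPS libraries 7199 genes pass it, so the share is not that of genes measured with LPS. Differences with and without LPS were nearly unrelated across genes, with a Pearson correlation of 0.07 and a Spearman correlation of 0.13. Of the 180 genes counted at rest, 91 (50.6%) had the same sign under LPS, against 54.9% of all genes, 16 passed 1 the same way and 25 the opposite way. The 131 lower genes had a median of -0.01 under LPS and the 49 higher genes one of 0.02.

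**Figure D5:**
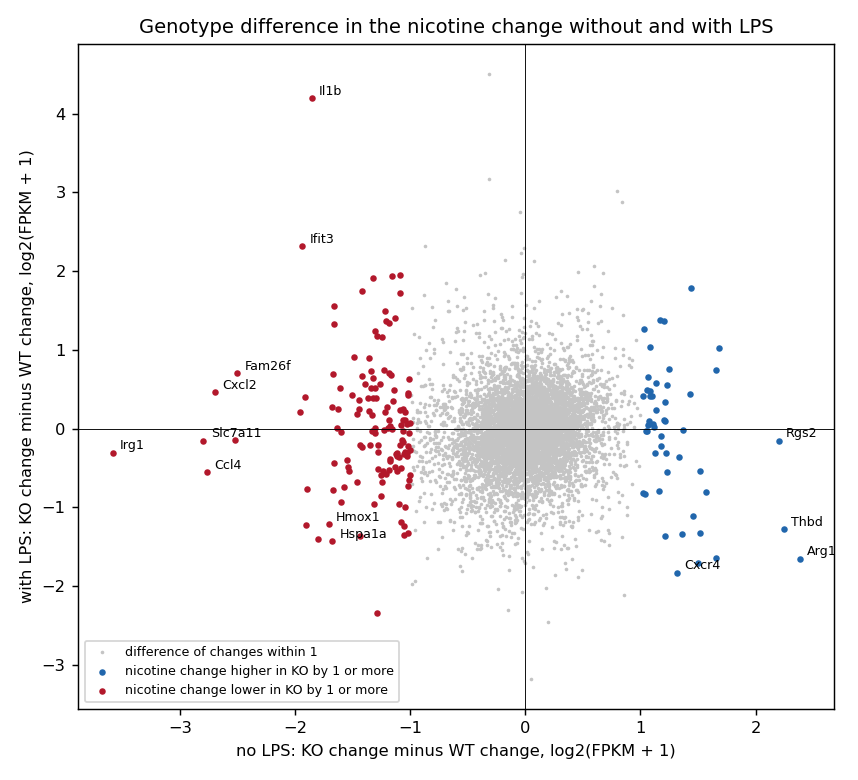
KO change minus WT change with nicotine, on the log2(FPKM + 1) scale, without LPS (x axis) and with LPS (y axis), 1 point per gene for 7335 genes. The 131 red and 49 blue genes counted without LPS spread to both sides of 0 with LPS, with medians of -0.01 and 0.02.

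Irg1, Tnf and Ccl4, far apart between genotypes at rest, had differences under 1 in size with LPS. Irg1 had 539 and 4367 FPKM in KO cells with nicotine plus LPS and with LPS alone, and 726 and 4733 FPKM in WT cells with nicotine plus LPS and with LPS alone, a difference of -0.31 against -3.59 at rest. Tnf had 2821 and 4794 FPKM in KO cells and 3118 and 4806 FPKM in WT cells in the same order (-0.14), and Ccl4 1984 and 6179 FPKM in KO cells and 2844 and 6025 FPKM in WT cells (-0.56). In all 3 the nicotine libraries were below the LPS-alone libraries in both genotypes. Il1b was opposite in sign, at 1076 and 17894 FPKM in KO cells and 63.2 and 19504 FPKM in WT cells (4.19), and so were Ifit3 (2.31), Il1a (1.55) and Ptgs2 (1.33), while the interferon-inducible GTPases had a median of 1.29 under LPS against -0.95 at rest. NRF2 genes had a median of 0.06. Hmox1 (-1.21), Hspa1b (-1.23), Hspa1a (-1.43) and Trps1 (-1.41) kept a difference below -1 with LPS, and Hcar2 (1.78) and Fam46a (1.03) one above 1. Hmox1 had 2916 and 872 FPKM in KO cells and 6180 and 796 FPKM in WT cells with nicotine plus LPS and with LPS alone, close to its pattern at rest. Arg1 (-1.66), Thbd (-1.28), Enc1 (-1.64), Cxcr4 (-1.83), Engase (-1.33), Dhrs3 (-1.33) and Rin2 (-1.11) were past 1 in the other direction under LPS. Some of these rest on low values. Thbd had 0.14 and 0.35 FPKM in KO cells and 1.32 and 0.14 FPKM in WT cells with nicotine plus LPS and with LPS alone. In the same order Engase had 0.27 and 0.31 FPKM in KO cells and 2.81 and 0.56 FPKM in WT cells. Enc1 was at 0.90 FPKM in WT cells with LPS alone. Arg1 was higher, at 45.2 and 95.4 FPKM in KO cells and 14.2 and 9.04 FPKM in WT cells. A check without a doubted library could not be made, since each of the 4 libraries is needed for the difference of changes.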

How the data were processed

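Poly(A) RNA of cultured mouse peritoneal macrophages was sequenced in 8 groups of 1 library each. Samples were grouped by their titles, and the 4 libraries without LPS made the comparison. Per the labels' protocols, libraries were made with TruSeq RNA v2, a kit that does not mark strand, so overlapping antisense genes cannot be told apart. The authors deposited 1 FPKM value per gene and library. CASAVA 1.8, HISAT2, Cufflinks, Cuffdiff and mm10 are named, with no roles, per the submitters' processing notes. The sources used here do not give the annotation, the filters or the scaling between libraries. If FPKM was scaled by library totals, a few abundant genes can shift all others. Since FPKM is not a count, no count model was used. Low values gave no common step (at most 18.3% of low genes lay at the most common ratio), so whole reads were not recovered and depth is unknown.

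The table held 24341 lines, and 2 repeated symbols that read as dates were dropped. From log2(FPKM + 1) the KO change minus the WT change was computed for genes averaging 5 FPKM or more and counted at 1 or more. The pseudocount understates changes of low genes. Without replicates there is no residual spread, so no test was made. The calculation was tested on simulated data. The 20 highest and 20 lowest differences were named, leaving out predicted, Rik and small RNA genes and date-like symbols, with the 5 largest shared changes each way, the genes with opposite changes, the extreme members of each list and genes tied to the question (Gdf15, Stat3, Jak2, Hmox1, Hes1, Nos2, Cxcl10, Il10, Il1b, Il6, Tnf and Chrna7). Other genes were named after their values were seen, as members of a list, and some results are not reported here. The genes, the 36 lists and the tests were chosen with earlier results of these data known. Positions came from GENCODE M21 on GRCm38, the same assembly as mm10, which held 7083 symbols (96.6%), and promoters from RefSeq on GRCm38.p6. Alternatives were other pseudocounts, filters, scalings and sizes of difference. Python 3.11.15, pandas 2.3.3, NumPy 2.4.6 and Matplotlib 3.10.9 were used.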

Additional observations from a re-analysis of the deposited data

Results flagged for a closer look

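Irg1 was picked out because nicotine went with opposite changes of at least 2-fold in the genotypes, -2.07 in KO cells and 1.51 in WT cells, a difference of -3.59. With 1 library per group this difference was not tested. Under LPS the difference was -0.31.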

How the results depend on the processing

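The counts of genes with a higher and a lower change in KO cells (49 and 131) were 21 and 85 with a pseudocount of 5, 88 and 207 for genes averaging 1 FPKM or more, 20 and 70 for those averaging 20 FPKM or more, and 99 and 240 with no filter. They were 291 and 432 when counted from a 1.5-fold difference and 3 and 6 when counted from a log2 difference of 2. The count under LPS, 416, was 232 with a pseudocount of 5, 185 for genes averaging 20 FPKM or more, 783 with no filter, 1376 from 1.5-fold and 21 from a log2 difference of 2. Fewer or more genes pass a filter or a size by construction. The counts stayed within 1.5 times with a pseudocount of 0.1 (60 and 154), an equal FPKM sum (71 and 99), an equal median (50 and 129) and quantile scaling (67 and 140), and so did the share of counted genes whose vehicle libraries held the larger difference, at 54.4% to 88.9% over all the settings above. Of the 40 genes named as highest or lowest, 40 stayed past 1 in size with each of the 3 scalings, 39 with a pseudocount of 0.1 and 33 with a pseudocount of 5, and 0 reversed. No paired analysis was possible because each group had 1 library and the labels carry no replicate numbers, and leaving out a replicate was not possible for the same reason. With depth unknown, no counting error can be given for any gene.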
